A study of Mus musculus with 6 samples.

Results

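The genes described here encode the major histocompatibility complex (MHC, called H2 in the mouse) and the proteins that supply it with peptides. Their transcripts were measured in liver tissue of C57BL/6 mice kept for 2 days on a regular diet (RD) or a high fat diet (HFD), both eaten freely. Each diet had 3 biological replicates, so 6 arrays of total RNA were compared; whether a replicate was 1 mouse or a pool is not stated. All 6 sample titles also carry an unexplained NI, and the sources used here do not give the age or sex of the mice or what the diets contained. A gene was taken when a probe set listed it as its only symbol and the symbol began with H2- (H2-Ke genes aside) or was B2m, Tap1, Tap2, Tapbp, Psmb8, Psmb9, Psmb10, Cd74, Ciita, Nlrc5 or Erap1. This gave 39 of the 19938 genes measured, 10 of class II and 29 of class I. The class I genes comprised 21 chain genes, B2m among them, and 8 genes of peptide supply and control. Values are log2 signals as deposited, so a difference of 1 is a doubling, and a signal is not a measure of abundance between genes.

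Class I molecules sit on nearly all nucleated cells. They pair a heavy chain with beta-2-microglobulin (B2m) and show peptides that the proteasome cuts in the cytosol and the TAP transporter carries into the endoplasmic reticulum. Class II molecules pair an alpha and a beta chain, are guarded by the invariant chain Cd74, and receive peptides from endosomes with the help of H2-DM. They are made mainly by dendritic cells, B cells and macrophages, which in the liver include the Kupffer cells. Ciita switches class II genes on, Nlrc5 does so for class I genes, and interferon-gamma induces both.

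The promoters of class II genes are known for a short array of boxes, of which the X box binds RFX and the Y box binds NF-Y. They are shown here for 3 class II genes that hold both boxes at a like spacing: H2-Aa and H2-Eb1, which were high in 1 HFD array, and H2-Eb2, which was not. Each sequence is the stretch just before the gene's start in RefSeq, read 5′ to 3′ on the gene's strand, with GCAAC (a core of the X box) and ATTGG (the Y box) in capitals. H2-Aa lies on the minus strand at chr17:34287824-34287973, H2-Eb1 on the plus strand at chr17:34305717-34305866 and H2-Eb2 on the plus strand at chr17:34325525-34325674, all in build GRCm38.p6.
H2-Aa: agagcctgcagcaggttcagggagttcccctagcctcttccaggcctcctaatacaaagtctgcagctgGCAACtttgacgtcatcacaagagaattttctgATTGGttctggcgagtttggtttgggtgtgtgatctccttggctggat
H2-Eb1: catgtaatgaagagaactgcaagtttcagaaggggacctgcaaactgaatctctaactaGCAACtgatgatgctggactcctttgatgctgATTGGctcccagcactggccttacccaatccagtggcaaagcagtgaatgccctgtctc
H2-Eb2: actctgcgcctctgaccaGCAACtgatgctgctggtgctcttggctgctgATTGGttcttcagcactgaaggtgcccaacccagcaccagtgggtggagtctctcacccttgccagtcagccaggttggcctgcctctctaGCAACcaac

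In H2-Aa 28 bases separate the boxes, and in H2-Eb1 and H2-Eb2 27 bases do. GCAAC begins 81, 91 and 132 bases before the start of H2-Aa, H2-Eb1 and H2-Eb2. Of the 39 genes, 28 matched a RefSeq promoter by symbol, 6 of class II and 22 of class I, and each window was searched over the 250 bases before its start on both strands. GCAAC followed after 15 to 35 bases by ATTGG was found in 5 of the 6 class II genes (H2-Aa, H2-Eb1, H2-Eb2, H2-Oa and H2-Ob), in 0 of the 22 class I genes and in 0.874% of all 32851 windows. The spacing was chosen after these sequences were read. GCAAC alone was in 29.9% and ATTGG alone in 33.8% of all windows. H2-DMa, H2-M10.5, Psmb9 and Tap1 held both in their windows, but not in this order and spacing. These are matches of letters and not measured sites.

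The immunoproteasome gene Psmb9 and the transporter gene Tap1 are neighbours that run away from each other, so that 1 stretch of 225 bases lies before both starts. It is shown because both genes stood about 2-fold above RD in the same array. The stretch is chr17:34187331-34187555 (GRCm38.p6), read on the plus strand from Psmb9 to Tap1. GCAAC and CCAAT, which is ATTGG read on the other strand, are in capitals.
Psmb9-Tap1: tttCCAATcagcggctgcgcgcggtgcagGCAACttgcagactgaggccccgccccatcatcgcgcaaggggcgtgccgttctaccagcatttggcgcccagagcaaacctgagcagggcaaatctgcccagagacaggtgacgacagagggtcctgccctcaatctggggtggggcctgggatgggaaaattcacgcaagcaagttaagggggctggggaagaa

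The tissue label was met by hepatocyte genes, since Alb lay between 14.40 and 14.44 in all 6 arrays. HFD replicate 1 stood apart from the other 5 arrays in many of the genes described here, and differences are therefore given with and without it, for the genes and lists the results turn on. HFD replicate 1 held the highest of the 6 values in 24 of the 39 genes, against 20% of all genes. Array medians, between 7.06 and 7.11, did not set it apart, and its median was the lowest. In bulk tissue, more cells of a type and more RNA per cell cannot be told apart.

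No member passed the test of HFD against RD, while 5.35% of all genes did, 3.11% as higher and 2.24% as lower (limma, Benjamini-Hochberg adjusted p under 0.05). The difference was positive in 26 of the 39, or 66.7% against 49.2% of all genes. The lowest adjusted p of a member was 0.068 and 6 of 39 had an unadjusted p under 0.05, or 15.4% against 19.7% of all genes. Class II genes had a median difference of 0.39 (log2, HFD minus RD), class I genes one of 0.07, and all genes one of -0.00. Without HFD replicate 1 the median was 0.10 for class II and 0.01 for class I. The gap between the class medians was thus 0.32 with that array and 0.09 without it. The intervals of the class II genes were wide, and that of H2-Eb1 ran from -0.03 to 1.59.

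**Figure D1:**
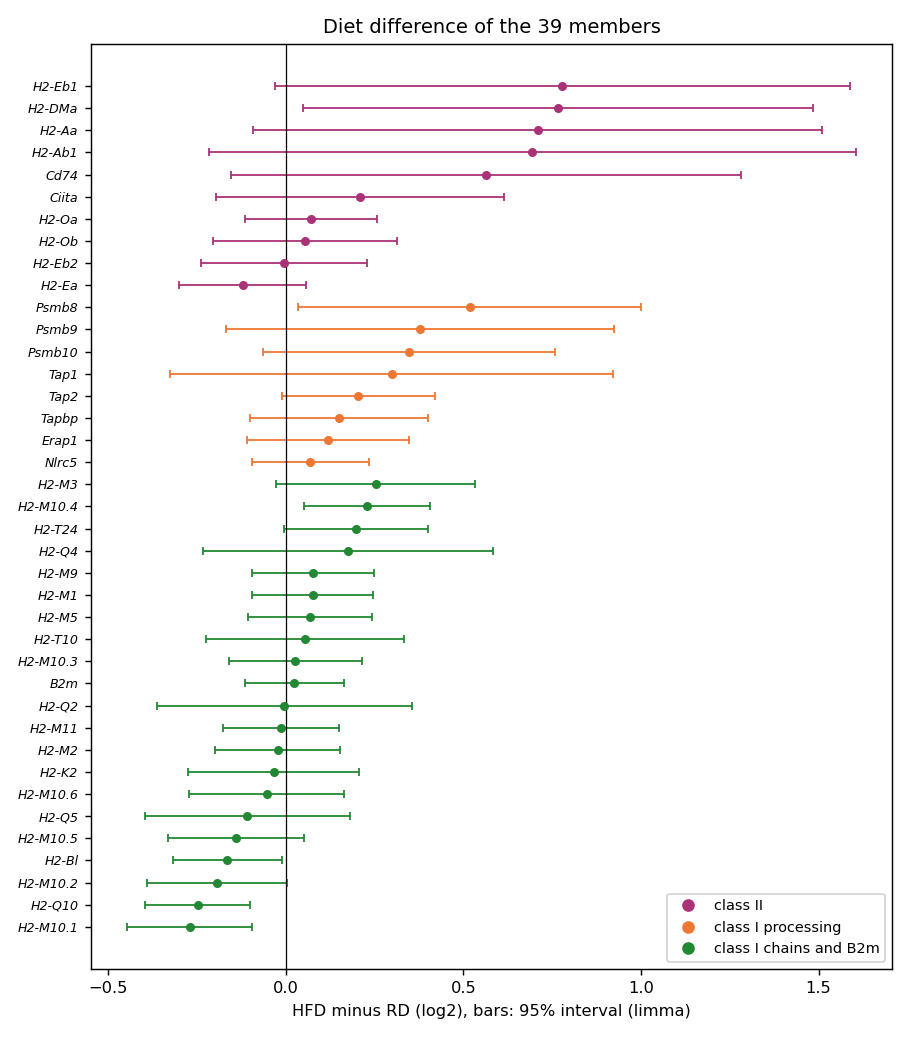
Difference between the diets (HFD minus RD, log2, horizontal axis) of each of the 39 genes, with points for the limma estimate and bars for its 95% interval, coloured by class. The 5 highest estimates are those of class II genes, from 0.56 for Cd74 to 0.78 for H2-Eb1, and their bars are the widest.

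The bright class II chain genes H2-Aa, H2-Ab1 and H2-Eb1 were high in 1 HFD array. H2-Aa, the alpha chain of the A molecule, read 9.92, 10.29 and 9.82 in the RD arrays and 11.67, 10.15 and 10.34 in the HFD arrays. H2-Ab1, its beta chain, read 9.76, 10.28 and 9.66 in RD and 11.66, 10.01 and 10.10 in HFD. For both genes HFD replicate 1 was far above the rest, and the other HFD arrays lay within or just above the RD values. The difference was 0.71 ± 0.35 for H2-Aa (SE; adjusted p = 0.316) and 0.69 ± 0.40 for H2-Ab1 (adjusted p = 0.392). Without HFD replicate 1 it was 0.23 and 0.16. H2-Eb1, the beta chain of the E molecule, read 9.49, 9.92 and 9.57 in RD and 11.41, 9.92 and 9.98 in HFD, a difference of 0.78 ± 0.35 (adjusted p = 0.274) or 0.29 without HFD replicate 1.

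HFD replicate 1 was 3.16-fold the RD mean for H2-Aa, 3.40-fold for H2-Ab1 and 3.36-fold for H2-Eb1. HFD replicate 2 was 1.10-fold, 1.08-fold and 1.20-fold, and HFD replicate 3 was 1.25-fold, 1.15-fold and 1.25-fold. The 3 genes follow each other without a gap in RefSeq's gene order. The next 2 genes in that order, H2-Eb2 and H2-Ea, had other values. H2-Ea, the alpha chain of the E molecule, is a transcribed pseudogene in RefSeq and is not expressed in this strain. It read 5.50, 5.45 and 5.48 in RD and 5.22, 5.38 and 5.47 in HFD, where HFD replicate 1 was the lowest array. H2-Eb2, a second E beta gene, read 6.18, 6.19 and 6.44 in RD and 6.27, 6.12 and 6.41 in HFD. Its difference was -0.00 (0.02 after quantile normalization or centring), with an interval from -0.24 to 0.23 and overlapping diets. The promoter of H2-Eb2 holds the same pair of boxes as that of H2-Eb1. But the mean signal of H2-Eb2 was low, at percentile 27.8 of all genes, where H2-Ea lay at 14.9. Detection calls were not used, so H2-Eb2 may not have been detected, and the part of the boxes was not tested.

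**Figure D2:**
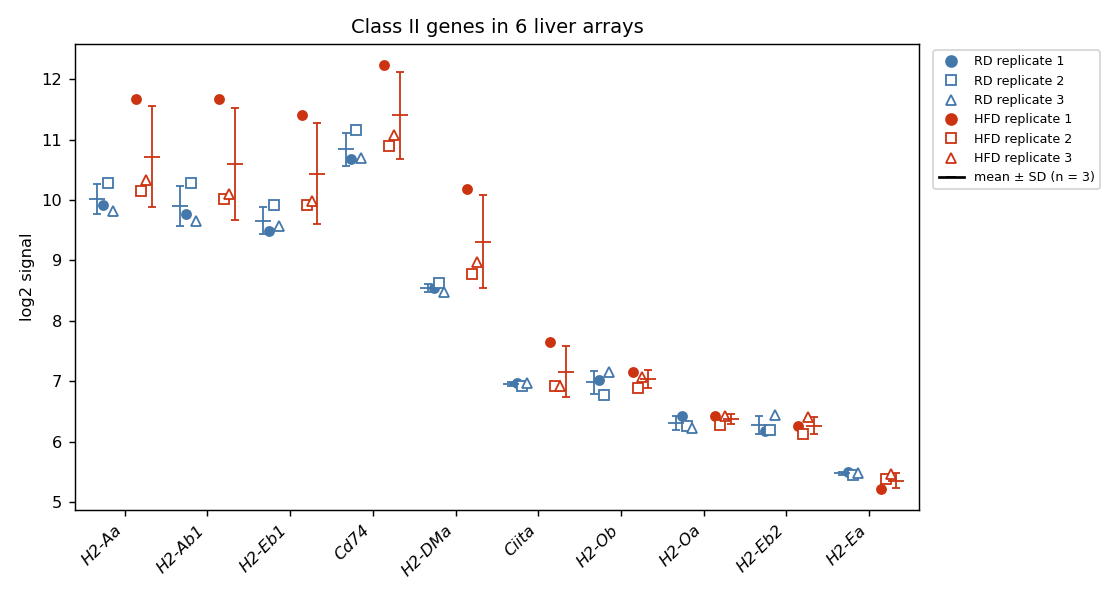
Log2 signal (vertical axis) of the 10 class II genes, with RD in blue and HFD in red, a symbol for each replicate, and bars for mean ± SD of 3 arrays. HFD replicate 1 (filled red circles) stands above every other array in the 5 brightest genes and Ciita, and by only 0.0065 in H2-Ob. It is the lowest array in H2-Ea.

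The invariant chain and the peptide loader of class II showed the same array. Cd74, which blocks the groove of new class II molecules until they reach endosomes, read 10.68, 11.16 and 10.69 in RD and 12.23, 10.90 and 11.08 in HFD. The HFD values of replicates 2 and 3 lay inside the RD range. The difference was 0.56 ± 0.31 (adjusted p = 0.377), or 0.15 without HFD replicate 1. H2-DMa, the alpha chain of the H2-DM peptide loader, was the class II gene with no overlap of the diets, at 8.54, 8.62 and 8.48 in RD and 10.19, 8.77 and 8.97 in HFD. Of the class II genes 1 in 10 had no overlap, against 25.7% of all genes. H2-DMa differed by 0.77 ± 0.31 (adjusted p = 0.221), and by 0.33 without HFD replicate 1 (adjusted p = 0.122). A probe set shared by H2-DMb1 and H2-DMb2, the beta chains of H2-DM, read 7.38, 7.49 and 7.62 in RD and 8.41, 7.68 and 7.73 in HFD, again without overlap. Its difference was 0.44 ± 0.20 (adjusted p = 0.353 over every row of the table).

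The regulators and inhibitors of class II were dimmer. Ciita, the class II transactivator, read 6.97, 6.92 and 6.98 in RD and 7.64, 6.93 and 6.92 in HFD. Only HFD replicate 1 exceeded RD, by 1.61-fold, and without it the difference turned from 0.21 to -0.03. H2-Oa and H2-Ob form H2-O, which restrains H2-DM in B cells. H2-Oa read 6.43, 6.26 and 6.23 in RD and 6.43, 6.28 and 6.43 in HFD. H2-Ob read 7.02, 6.77 and 7.15 in RD and 7.16, 6.88 and 7.07 in HFD. Neither gene set HFD replicate 1 apart, and both had overlapping diets; the difference of H2-Ob, 0.05, was below 0 without RD replicate 2 or HFD replicate 1.

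The 5 brightest class II genes also varied in parallel within RD. RD replicate 2 was the highest RD array in 5 of these 5 genes, against 33.2% of all genes. Its H2-Aa, H2-Ab1, H2-Eb1 and Cd74 values were near or above those of HFD replicates 2 and 3. HFD replicate 3 was above HFD replicate 2 in 5 of 5. H2-DMa differed from them, since RD replicate 2 at 8.62 lay below all HFD arrays.

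Few genes of the whole table set HFD replicate 1 apart as far. It stood at least 1 log2 unit above every other array in 20 genes, or 0.1% of all genes, and 5 of these 20 were the class II genes H2-Eb1, H2-Ab1, H2-Aa, H2-DMa and Cd74. Of the other 15 genes, 5 were on a list of 14 interferon-gamma responsive genes, 9 of them measured: Cxcl9, Cxcl10, Gbp3, Gbp4 and Gbp7. Chosen after their values were seen, the rest were BC023105, Gm12250, Slc15a2, Fgl2, Cd274, Ly6i, Gbp2b, Zbp1, Gm4841 and Gbp8. Among these, Cd274 was also on the list of costimulatory genes. At a gap of 0.5 there were 151 genes, or 0.757% of all, with 6 class II and 5 class I genes among them. The measure was itself chosen after HFD replicate 1 was seen to stand apart.

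**Figure D3:**
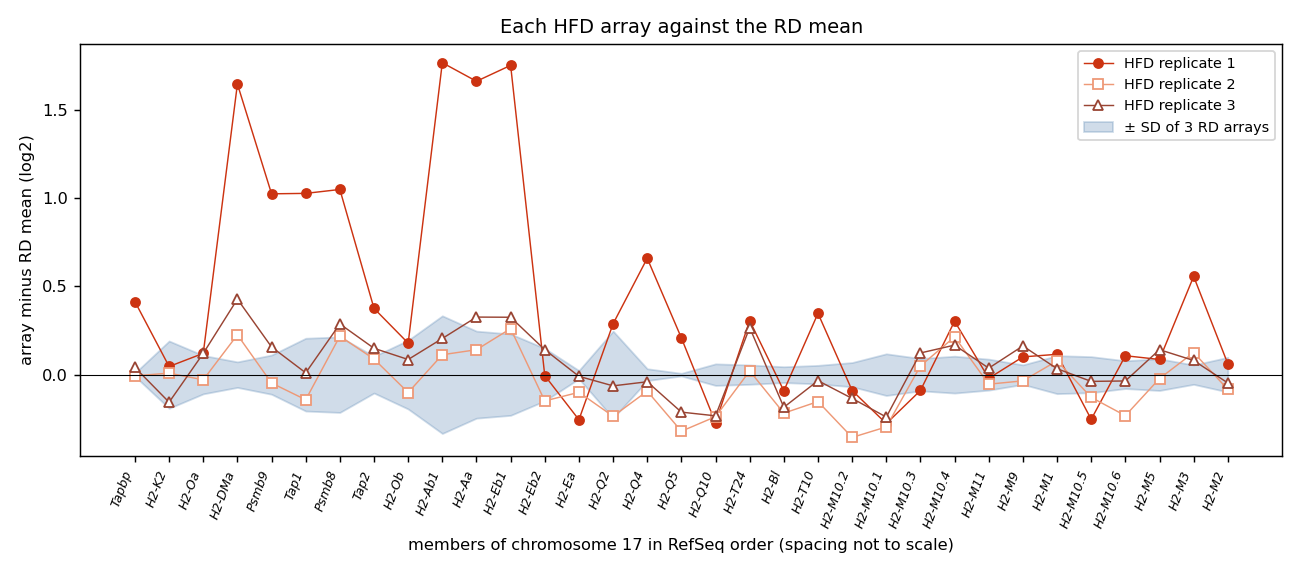
Value of each HFD array minus the RD mean (log2, vertical axis) for the 33 members of chromosome 17, placed in RefSeq order with even spacing; the band is ± SD of the 3 RD arrays. HFD replicate 1 lies above 1.6 at H2-DMa, H2-Ab1, H2-Aa and H2-Eb1 and to about 1 at Psmb9, Tap1 and Psmb8, and stays near 0 at H2-Oa, H2-Eb2 and most H2-M genes.

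Peptide supply to class I showed the same array at a smaller size. All 8 genes had a positive difference, 0.25 in the median, and HFD replicate 1 was the highest array in each. Without it 7 of 8 were positive and the median was 0.04. Psmb8, an immunoproteasome subunit, read 7.82, 8.05 and 8.25 in RD and 9.09, 8.26 and 8.33 in HFD, just without overlap. It differed by 0.52 ± 0.21 (adjusted p = 0.220), or 0.25 without HFD replicate 1. Psmb9, another such subunit, read 8.96, 9.14 and 9.16 in RD and 10.11, 9.04 and 9.24 in HFD. Psmb10, the remaining one, read 9.49, 9.50 and 9.45 in RD and 10.32, 9.58 and 9.58 in HFD, where each HFD array was above each RD array. HFD replicate 1 was 2.07-fold, 2.03-fold and 1.79-fold the RD mean in Psmb8, Psmb9 and Psmb10. The difference of Psmb9 was 0.38, and 0.05 without that array, and that of Psmb10 was 0.35 and 0.10.

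The transporter and loading genes followed. Tap1 read 8.87, 9.09 and 9.28 in RD and 10.10, 8.94 and 9.09 in HFD, so that only HFD replicate 1 left the RD range, at 2.04-fold the RD mean. Its difference of 0.30 turned to -0.07 without that array. Tap2, its partner in the transporter, read 8.51, 8.62 and 8.72 in RD and 8.99, 8.70 and 8.76 in HFD. Tapbp (tapasin), which holds class I chains at the transporter, read 11.12, 11.13 and 11.13 in RD and 11.54, 11.12 and 11.17 in HFD. Erap1, which trims peptides, read 10.19, 10.14 and 10.24 in RD and 10.53, 10.23 and 10.17 in HFD. HFD replicate 1 was the highest array in each, by less than in Tap1. Without it the difference was 0.12 in place of 0.20 for Tap2, 0.02 in place of 0.15 for Tapbp and 0.01 in place of 0.12 for Erap1. RD replicate 3 was the highest RD array in 7 of the 8 genes, while in the 5 brightest class II genes it was RD replicate 2. Some of these were near ties. In Tapbp RD replicate 3 read 11.1347 and RD replicate 2 11.1338, and in Nlrc5 RD replicate 3 read 10.2989 and RD replicate 1 10.2987.

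Nlrc5, the class I transactivator, depended on the probe set. The brightest of its 19 probe sets read 10.30, 10.25 and 10.30 in RD and 10.43, 10.24 and 10.38 in HFD, a difference of 0.07, or 0.03 without HFD replicate 1. Over the 19 probe sets the difference ran from -0.01 to 0.52 with a median of 0.12, and HFD replicate 1 was the highest array in 17. None passed (lowest adjusted p = 0.342 over every row). The mean of the probe sets gave 0.18.

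**Figure D4:**
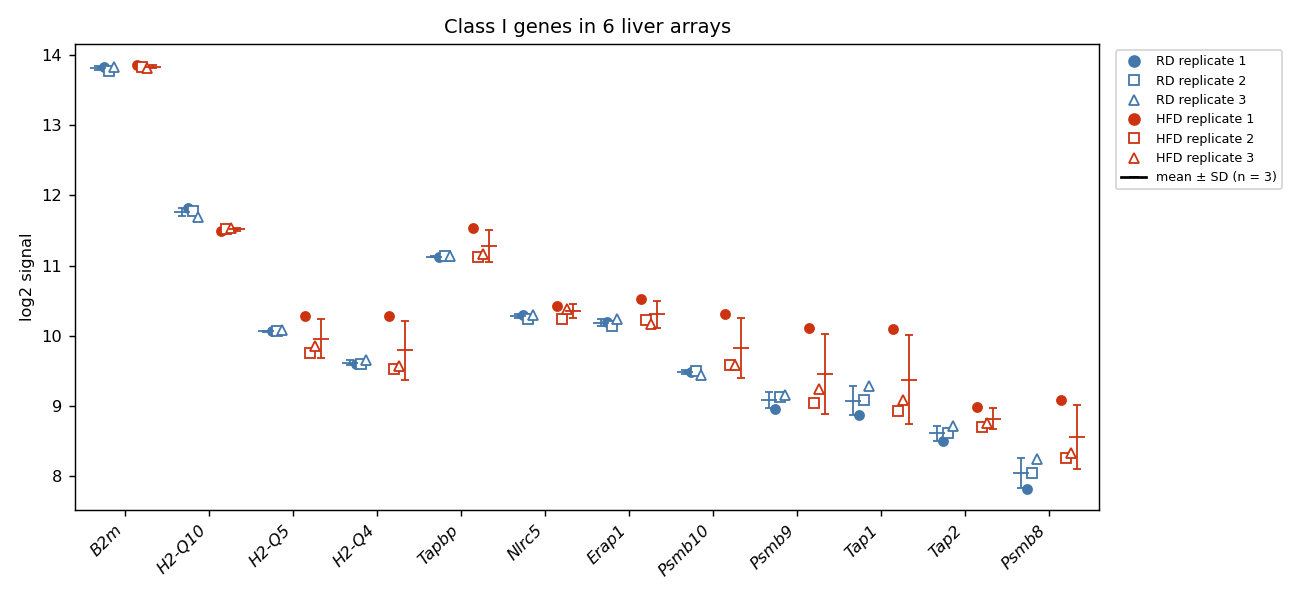
Log2 signal (vertical axis) of 12 class I genes, drawn as for class II: B2m, 3 H2-Q genes and the 8 genes of peptide supply and control. HFD replicate 1 is the highest array in all but H2-Q10, in which all 3 HFD arrays lie below all 3 RD arrays.

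The class I chains showed HFD replicate 1 in fewer genes than peptide supply did, with 9 of 21 highest there (42.9%, against 20% of all genes) and 1 of 21 at least 0.5 above every other array. B2m, the light chain of all class I molecules, read 13.83, 13.78 and 13.83 in RD and 13.86, 13.83 and 13.82 in HFD. Its difference was 0.02, with an interval from -0.12 to 0.16, with overlapping diets. The classical heavy chains H2-K1 and H2-D1 have no probe set of their own here. A pair of probe sets that list both and 1 more symbol read 12.55, 12.44 and 12.53 in RD against 12.80, 12.50 and 12.61 in HFD, and 13.31, 13.25 and 13.17 against 13.32, 13.07 and 13.14. Their differences were 0.13 ± 0.09 and -0.06 ± 0.09 (0.05 and -0.14 without HFD replicate 1), and the diets overlapped in both. The 21 chain genes had a median difference of -0.00, with 10 above 0 and 11 below, and one of -0.07 without HFD replicate 1. A probe set shared by H2-Q6 and H2-Q8 set that array apart, at 10.56, 10.54 and 10.65 in RD and 11.17, 10.29 and 10.32 in HFD. Its difference was 0.01, and -0.28 without HFD replicate 1.

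H2-Q10, a secreted class Ib chain made mostly by the liver, was the member with the lowest p, and its values were lower in HFD, although it did not pass. It read 11.82, 11.78 and 11.70 in RD and 11.49, 11.53 and 11.53 in HFD, with no overlap, and HFD replicate 1 lay close to the other HFD arrays. The difference was -0.25 ± 0.06 (adjusted p = 0.068), and -0.24 without HFD replicate 1 (adjusted p = 0.176). Among the brighter genes alone, and with an intensity trend and a robust prior, it passed (adjusted p = 0.027 and 0.020). Centring the arrays on their medians gave 0.102, and the alternatives together spanned 0.020 to 0.205. H2-Q4 read 9.60, 9.59 and 9.66 in RD and 10.28, 9.52 and 9.58 in HFD, so HFD replicate 1 stood up in it. H2-Q5, a transcribed pseudogene, read 10.07, 10.06 and 10.08 in RD and 10.28, 9.75 and 9.86 in HFD, where the other HFD arrays lay below all RD arrays. The H2-Q genes are close copies, so their separate values are uncertain.

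Lower values were seen in 3 other chain genes, each without overlap. H2-Bl, a transcribed pseudogene, read 7.28, 7.20 and 7.26 in RD and 7.15, 7.03 and 7.06 in HFD, a difference of -0.16 ± 0.07 (adjusted p = 0.219), or -0.20 without HFD replicate 1. A probe set shared by H2-Q1 and H2-Bl read 8.62, 8.73 and 8.59 in RD and 8.22, 8.07 and 8.20 in HFD, a difference of -0.48 ± 0.08. Over every row of the table it passed (adjusted p = 0.049), where 0.487% of rows passed as lower, but the call was lost with each of the 6 arrays left out in turn (adjusted p from 0.108 to 0.157). H2-M10.1, among the dimmest members, read 4.75, 4.54 and 4.56 in RD and 4.34, 4.32 and 4.38 in HFD, a difference of -0.27 ± 0.08 (adjusted p = 0.087). H2-M10.2 differed by -0.19.

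The 12 H2-M genes lay below the median signal of all genes, and none read above 7.91. The H2-M10 genes among them are known from vomeronasal neurons, and detection calls were not used here. Their differences ran from -0.27 for H2-M10.1 to 0.25 for H2-M3, which presents formylated bacterial peptides. H2-M3 read 7.34, 7.32 and 7.42 in RD and 7.91, 7.48 and 7.44 in HFD, and H2-M10.4 read 6.10, 6.00 and 5.89 against 6.30, 6.21 and 6.16, both without overlap. Without HFD replicate 1 their differences were 0.10 and 0.19. H2-T24, H2-T10, H2-K2 and H2-Q2 differed by 0.20, 0.05, -0.03 and -0.00 with overlapping diets. Over all 39 genes, 9 had no overlap, 5 higher and 4 lower in HFD, or 23.1% against 25.7% of all genes.

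Around these members, 44 other genes of the pathway were measured from a list, and 2 passed, both higher in HFD (3.11% of all genes passed as higher). Both serve class II in the endosome. Ifi30 (GILT), the reductase that opens disulfide bonds of antigens, read 10.17, 10.09 and 10.28 in RD and 11.39, 10.82 and 10.97 in HFD. It rose by 0.88 ± 0.14 (adjusted p = 0.012). The protease Lgmn read 10.72, 10.68 and 10.86 in RD and 11.57, 11.20 and 11.24 in HFD, and rose by 0.58 ± 0.11 (adjusted p = 0.020). All HFD arrays were above all RD arrays in both, and both calls held without HFD replicate 1 but were lost without RD replicate 1 or 2. Ctss, which cuts the invariant chain, read 9.005, 9.19 and 9.09 in RD and 10.01, 9.22 and 9.52 in HFD (adjusted p = 0.165). Mr1, which shows vitamin metabolites of microbes to T cells, read 9.19, 9.42 and 9.21 in RD and 8.95, 8.89 and 8.56 in HFD, a difference of -0.47 ± 0.11 that just missed the threshold (adjusted p = 0.052).

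Of the 44 genes, 16 regulators and 5 costimulatory genes gave 0 calls in limma, against 5.35% of all genes. An unadjusted p under 0.05 was reached by 4 regulators (25%) and 2 costimulatory genes (40%), against 19.7% of all genes. Cd80 and Cd86, costimulatory ligands of antigen presenting cells, differed by 0.54 and 0.60 (limma adjusted p = 0.068 and 0.094). Without HFD replicate 1 they differed by 0.42 and 0.37. Creb1, the regulator of lowest p, differed by 0.23 (limma adjusted p = 0.111), or 0.20 without that array. Irf1, an interferon responsive factor that drives class I genes, differed by 0.52 ± 0.19 (adjusted p = 0.170), Spi1 by 0.48 ± 0.15 and Irf8 by 0.40 ± 0.14. Without HFD replicate 1 Irf1, Spi1 and Irf8 differed by 0.32, 0.30 and 0.23. The RFX genes Rfx5, Rfxap and Rfxank differed by 0.13, 0.06 and -0.06. The median difference of the 44 genes was 0.14, or 0.09 without HFD replicate 1, and 16 were higher without overlap, or 36.4% against 14% of all genes.

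The interferon-gamma responsive genes moved with class II in HFD replicate 1. Of 9 measured, 7 stood there at least 0.5 above every other array, against 0.757% of all genes. Cxcl9, a chemokine for T cells, read 9.87, 10.35 and 10.13 in RD and 12.68, 10.74 and 10.99 in HFD. Gbp4, a guanylate binding protein, read 8.01, 7.92 and 8.11 in RD and 9.73, 7.99 and 8.06 in HFD. None of the 9 passed in limma, with 3 at an unadjusted p under 0.05 (33.3%, against 19.7% of all genes). Without HFD replicate 1, 2 of the 9 (Cxcl9 and Cxcl10) passed, and 512 of all 19938 genes did. Ifng itself read 6.23, 5.97 and 6.40 in RD and 6.39, 6.07 and 6.17 in HFD, within 1 range. What part these genes have in the class II values was not tested.

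Markers of cell types, among them cells that carry class II, were read beside the class II genes, as the mean log2 signal of each list. The 8 Kupffer cell markers lay between 9.64 and 9.70 in RD and at 10.51, 9.98 and 10.17 in HFD. HFD replicate 1 was the highest array in 7 of the 8, against 20% of all genes. Of these markers 4 rose (Cd5l, Timd4, Adgre1 and Marco), while 3.11% of all genes passed as higher. The same 4 passed without HFD replicate 1, where 512 of all 19938 genes passed in either direction. Every HFD array was above RD in 7 of the 8, against 14% of all genes. Of the class II genes, 1 of 10 was above RD in every HFD array, and the difference between the lists was not tested. The 8 dendritic cell markers lay between 7.14 and 7.21 in RD and at 7.47, 7.15 and 7.26 in HFD. None of the 8 passed in limma, with 1 at an unadjusted p under 0.05 (12.5%, against 19.7% of all genes). The 9 T and NK cell markers lay between 6.26 and 6.35 in RD and at 6.87, 6.23 and 6.37 in HFD. In HFD replicate 1, 9 of 9 were above the RD range, as were 6230 of all 19938 genes. None of the 9 passed in limma, with 0 at an unadjusted p under 0.05, against 5.35% and 19.7% of all genes. The 7 monocyte and neutrophil markers lay between 6.45 and 6.53 in RD and at 6.90, 6.65 and 6.59 in HFD. Of these 7 markers 1 passed, Lyz2, while 5.35% of all genes did. Lyz2 rose by 0.68 ± 0.13 (limma adjusted p = 0.022), and by 0.52 without HFD replicate 1 (limma adjusted p = 0.017). The other 6 of these markers did not pass; S100a8 differed by -0.21 with all HFD arrays below all RD arrays, and S100a9 by 0.02.

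The 7 B cell markers lay between 6.22 and 6.40 in RD and between 6.22 and 6.37 in HFD. In HFD replicate 1, 1 of 7 was above the RD range, as were 6230 of all 19938 genes. Hepatocyte markers lay between 14.17 and 14.21 in RD and between 14.16 and 14.21 in HFD. Those of sinusoidal endothelium lay at 10.43 to 10.50 in RD and 10.45 to 10.61 in HFD. Stellate cell markers lay at 9.71 to 9.87 in RD and 9.81 to 9.87 in HFD. These lists gave 0 calls in limma and 0 genes at an unadjusted p under 0.05, against 5.35% and 19.7% of all genes. No marker can be placed at 0, because detection calls were not used here. The part of cell numbers in the class II values was not tested.

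**Figure D5:**
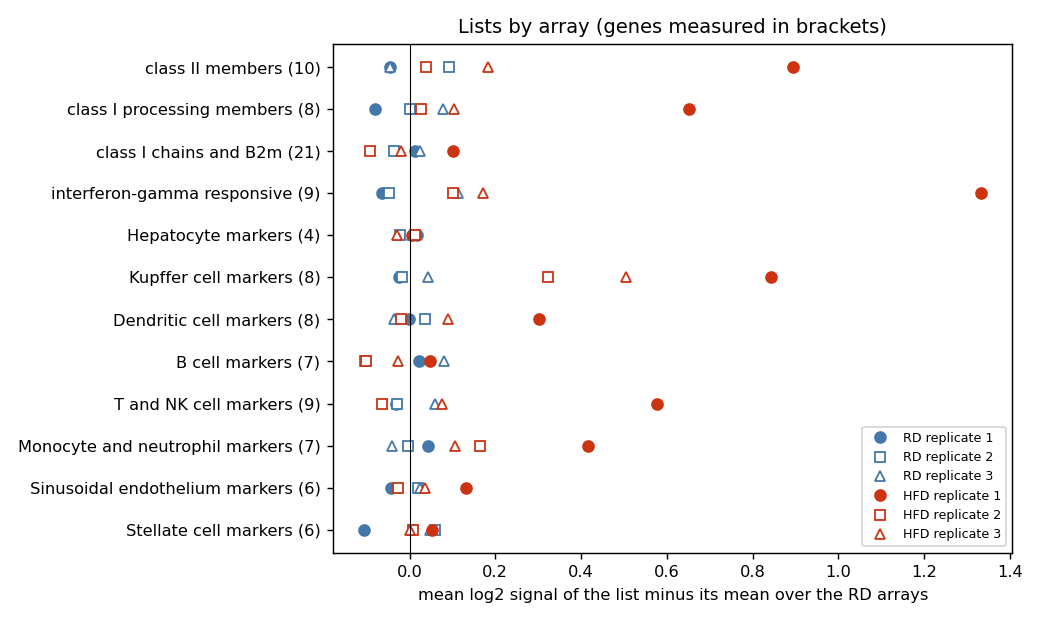
Mean log2 signal of each list in each array minus its mean over the 3 RD arrays (horizontal axis); the number of genes is in brackets. HFD replicate 1 (filled red circles) lies furthest to the right in every list except the hepatocyte, B cell and stellate cell markers. In the Kupffer cell list and the monocyte and neutrophil list all 3 HFD arrays lie to the right of all RD arrays.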

How the data were processed

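The authors deposited 1 log2 value per probe set and array; no label or file header used here says how they were summarised or normalized, and base 2 was inferred from the values (2.28 to 14.86). Scan dates were not used here and precision is limited by having 3 arrays a diet. Of 35512 rows, 21789 list 1 symbol in the platform annotation; the brightest probe set by mean over 6 arrays stood for a gene (1 member, Nlrc5, has several). All 39 members matched RefSeq symbols. Diet was fitted in limma 3.58.1 (R 4.3.3; lmFit, eBayes, two-sided) on all 19938 genes, with Benjamini-Hochberg adjustment over all of them and a threshold of 0.05. The steps were tested on simulated data. Per-array values are given for core class II and class I genes and the 4 other members of lowest p; other genes named beyond those past the threshold were chosen after their values were seen. Some probe sets that list several H2 symbols, and their fits with each array left out, were added after seeing the data. The members, lists and tests were chosen with earlier results of these data known. The series' design text calls the replicates biological. Alternatives were another normalization, centring, filter, probe set rule, prior, weights, the replicate number as a block, and each array left out.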

Additional observations from a re-analysis of the deposited data

How the results depend on the processing

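The fit of the brighter genes held 21 of the 39 members. There 1 member (H2-Q10) passed, and 1481 of all 9969 brighter genes did. With an intensity trend and a robust prior 1 of 39 (H2-Q10) passed, and 1465 of all 19938 genes did. No member passed under the other alternatives, each single array left out included. Of the 44 other pathway genes, 40 were among the brighter genes, and 4 passed there, beside the 1481 of 9969. With the trend 5 of the 44 passed, beside the 1465 of 19938. With 1 array left out 0 to 2 of the 44 passed. All genes gave 405 to 626 calls with 1 array left out. With the replicate number as a block they gave 563 and the members 0; same-numbered arrays did not deviate together (correlations -0.107, 7.2e-05 and 0.117), so the number is not taken as a pairing. The class II median ran from 0.10 (without HFD replicate 1) to 0.71 (brighter genes) and the class I median from -0.00 to 0.13. With the probe sets of several H2 symbols included the medians were 0.44 and 0.03. Directions turned in small differences. H2-Eb2 was 0.0241 after quantile normalization and 0.0167 after centring, and -0.0771 to 0.0814 with 1 array left out (positive without RD replicate 3 or HFD replicate 2). With 1 array left out H2-Ob was -0.0513 (without RD replicate 2; -0.0078 without HFD replicate 1) to 0.1401, Ciita -0.0329 (without HFD replicate 1) to 0.3301 and Tap1 -0.0659 (without HFD replicate 1) to 0.5179. The cause was not tested.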
